A study of Mus musculus with 8 samples.

Results

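The 10 genes described here, Mcm2, Mcm3, Mcm4, Mcm5, Mcm6, Mcm7, Mki67, Top2a, Pcna and Cdk1, belong to the machinery of DNA replication and cell division. They were taken by their gene symbols from the 23393 named genes of the deposited tables, in which all 10 were found. All 10 also passed the low-count filter that left 17415 genes for testing. RNA was sequenced from prefrontal cortex. The mice, of strain C57BL6/J and given as 6 to 8 weeks old, had been injected with adeno-associated virus of serotype 9 (AAV9). The 8 libraries formed 4 groups of 2, namely hairpin virus against Adnp by the sample titles (shAdnp), its own green fluorescent protein (GFP) virus controls (the Adnp set), hairpin virus against Pogz by the titles (shPogz), and a separate pair of GFP controls (the Pogz set). Adnp and Pogz encode zinc finger proteins of chromatin, and the series asks whether their loss acts through a shared mechanism. Every group, controls included, carried the same AAV9 serotype in the same strain, and every sample was bulk lysate rather than sorted cells. The hairpin sequence, the promoter that drives it and the share of infected cells are not stated in the labels.

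The treatment label of both hairpin groups names ASH1L in place of Adnp or Pogz, so the targeted genes were looked at first. Adnp stood at 87.2 and 118 counts-per-million (CPM, scaled by the TMM method) in shAdnp libraries, against 137 and 111 CPM in their GFP controls. These groups overlapped, and the log2 fold change was -0.27 ± 0.19 (standard error of the model, n = 2 each). Pogz stood at 49.0 and 37.3 CPM in shPogz libraries, against 54.4 and 53.1 CPM in their GFP controls. These groups did not overlap, but edgeR's quasi-likelihood test with Benjamini-Hochberg adjustment gave an adjusted p of 0.667 for a log2 fold change of -0.32 ± 0.16. Ash1l differed by -0.10 ± 0.14 in the Adnp set and by 0.11 ± 0.14 in the Pogz set. Total counts in named genes ran between 27501722 and 69002749 per library. The ribosomal RNA gene Rn45s took 7.62% of the counts of shAdnp library 1 and between 0.134% and 0.740% in the other 7. Markers of excitatory neurons summed to between 6160 and 9660 CPM, so the libraries carried the neuronal RNA that the tissue label implies.

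The proteins Mcm2 to Mcm7 form the ring-shaped helicase that is loaded on replication origins before S phase and unwinds DNA ahead of the fork. Pcna is the sliding clamp that holds DNA polymerases on their template and also serves DNA repair, so that it is made in resting cells too. Cdk1 is the kinase that drives entry into mitosis, Top2a untangles sister chromosomes, and Mki67 encodes the Ki-67 protein that coats mitotic chromosomes and marks cycling cells. Neurons of the adult cortex have left the cell cycle. The dividing cells known in that tissue are mainly oligodendrocyte precursors, along with microglia when activated and leukocytes that enter from blood.

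Levels of different genes were compared per kilobase of annotated exon in the 4 GFP libraries. Pcna was the most abundant at a mean of 18.0 CPM per kb, with a range over the libraries of 16.2 to 19.8. The helicase subunits followed, with Mcm7 at 4.40 (range 3.88 to 5.10), Mcm4 at 3.89 (3.51 to 4.24), Mcm6 at 2.80 (2.20 to 3.57), Mcm5 at 2.29 (1.64 to 3.07), Mcm2 at 2.19 (1.82 to 2.62) and Mcm3 at 1.51 CPM per kb (0.940 to 2.32). The genes of the mitotic phase lay lowest, with Top2a at 1.36 (0.354 to 3.37), Mki67 at 1.06 (0.399 to 2.34) and Cdk1 at 0.229 CPM per kb (0.0587 to 0.499). Only Pcna was separated from its neighbour in this order, and the ranges of every other neighbouring pair overlapped. In the GENCODE M21 annotation of GRCm38, Mcm3 lies at chr1:20802968-20820312, Cdk1 at chr10:69335146-69352938, Top2a at chr11:98992943-99024189 and Mki67 at chr7:135689784-135716361, all on the minus strand. Mcm7 overlaps Cops6 and Ap4m1 on the opposite strand and holds the microRNA genes Mir25, Mir93 and Mir106b, and Pcna has processed pseudogenes. The labels state neither the strand setting of the counting nor how reads with several matches were treated, so the counts of Mcm7 and Pcna are the less certain.

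The genes varied among libraries to very different degrees. Cdk1 spanned 19.9-fold between its lowest and highest library in CPM, Top2a 17.3-fold, Mki67 7.87-fold and Mcm3 4.66-fold. The other subunits spanned between 1.61-fold (Mcm7) and 2.85-fold (Mcm6), and Pcna 1.42-fold. The median over the 10 genes was 2.68-fold, beside 1.51-fold over all 17415 genes tested. The extremes fell in the same libraries almost throughout: shPogz library 2 was highest for 10 of 10 genes, and GFP library 1 of the Adnp set was lowest for 9 of 10. Mcm5 was the exception and was lowest in GFP library 1 of the Pogz set.

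**Figure D1:**
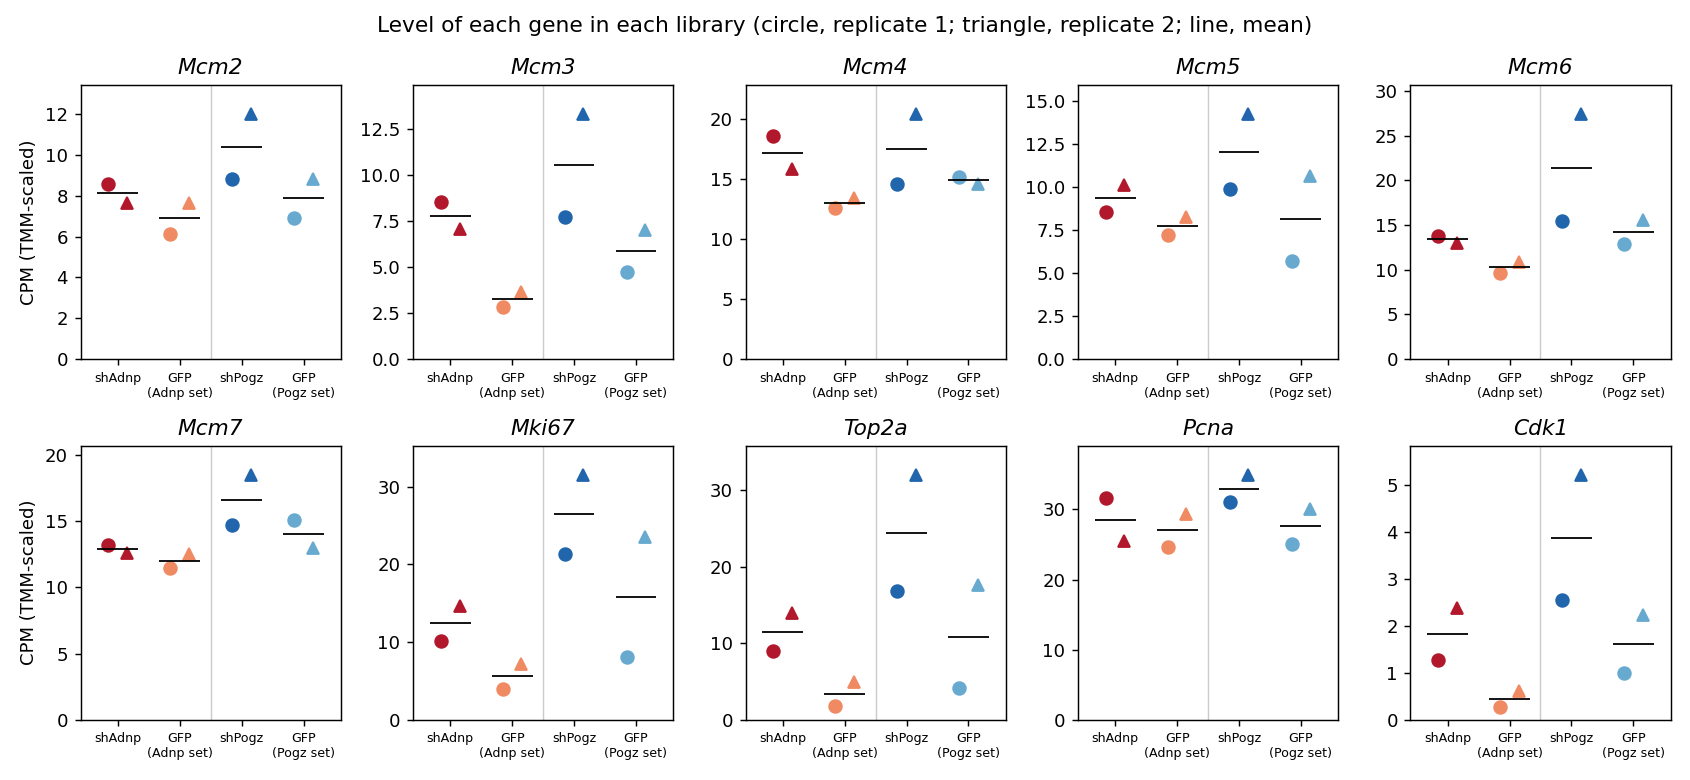
Level of each of the 10 genes in every library, in TMM-scaled CPM on linear axes that start at 0 and differ between panels, 1 panel per gene and 1 point per library, with a short line at each group's mean. Cdk1 lay between 0.262 and 5.21 CPM and Pcna between 24.6 and 34.9 CPM, and shPogz library 2 was the highest in every panel.

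Promoters are shown for Mcm3, Cdk1 and Top2a, since the results below turn on these genes, and carry letters recognised by regulators of the cell cycle. E2F factors switch on genes of DNA replication through words such as TTTCCCGC, TTTGGCGC, TTTCGCGC and TTTGCCGC. The CHR element (TTTGAA) and CCAAT boxes are typical of genes expressed around mitosis. The sequences below come from the RefSeq table of GRCm38.p6, read on the strand of the gene, and end just before the gene as GENCODE annotates it. Capitals mark matches on either strand to an E2F word, to TTTGAA or to CCAAT. The stretches are chr1:20820313-20820562 for Mcm3, chr10:69352939-69353162 for Cdk1 and chr11:99024190-99024439 for Top2a, all on the minus strand, and lie outside the transcribed gene.
Mcm3: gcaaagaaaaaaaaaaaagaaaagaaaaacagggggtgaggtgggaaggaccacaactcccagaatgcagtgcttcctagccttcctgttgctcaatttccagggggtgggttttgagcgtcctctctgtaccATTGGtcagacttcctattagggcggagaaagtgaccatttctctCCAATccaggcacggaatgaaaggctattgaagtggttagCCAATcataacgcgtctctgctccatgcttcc
Cdk1: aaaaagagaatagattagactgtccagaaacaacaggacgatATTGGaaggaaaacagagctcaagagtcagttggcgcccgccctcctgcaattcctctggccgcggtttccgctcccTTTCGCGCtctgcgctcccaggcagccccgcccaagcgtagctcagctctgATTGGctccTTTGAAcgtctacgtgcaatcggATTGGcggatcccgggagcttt
Top2a: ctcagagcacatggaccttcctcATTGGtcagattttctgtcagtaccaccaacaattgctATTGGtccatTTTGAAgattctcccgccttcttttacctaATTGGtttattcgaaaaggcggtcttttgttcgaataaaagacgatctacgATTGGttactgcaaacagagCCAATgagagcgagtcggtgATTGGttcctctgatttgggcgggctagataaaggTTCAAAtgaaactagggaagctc

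The Mcm3 stretch holds 3 CCAAT matches, and the E2F matches of this gene start 20 and 39 bases after the RefSeq start site. The Cdk1 stretch holds an E2F word, a TTTGAA and 3 CCAAT matches. The Top2a stretch holds TTTGAA on both strands and 6 CCAAT matches. In windows running 250 bases upstream to 50 bases downstream of the start site, which were found for 9 of the 10 genes, an E2F word was present in 5, namely Mcm3, Mcm5, Mcm6, Mcm7 and Cdk1. The same words were present in 2.26% of 32851 RefSeq promoters. TTTGAA was present in 4 of 9 (Mcm2, Mki67, Top2a and Cdk1), beside 17.9% of all promoters, and CCAAT in 9 of 9, beside 37.4%. E2F matches may overlap one another, as in Mcm5 and Mcm6, and a match is a description of the letters, not evidence of binding.

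In shAdnp cortex, the helicase subunit Mcm3 and the mitotic genes Cdk1, Top2a and Mki67 stood well above their GFP controls in level, while Mcm7 and Pcna were nearly level with theirs. No gene passed the adjusted threshold of 0.05 in edgeR's quasi-likelihood test across all genes, so none of these differences is a called change. Mcm3 was at 8.54 and 7.04 CPM in shAdnp libraries, against 2.85 and 3.65 CPM in GFP controls. Both shAdnp libraries lay far above both controls. The group means were 7.79 ± 1.06 and 3.25 ± 0.566 CPM (SD, n = 2 each), a fold of 2.40 and a log2 fold change of 1.26 ± 0.30 (95% interval 0.59 to 1.93). Its unadjusted p of 0.00212 ranked 125th among the 17415 genes in edgeR, and its adjusted p was 0.295. Under DESeq2 the adjusted p of Mcm3 was 0.00448, and over all alternative settings it ran between 0.00448 and 1.00. Cell number and RNA per cell cannot be told apart in bulk tissue, so a higher level may mean more cells of a type or more RNA in each.

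Cdk1 was counted in few reads, 73 and 132 in shAdnp libraries, against 16 and 38 in GFP controls. These are 1.27 and 2.38 CPM in shAdnp libraries (95% Poisson intervals 0.995 to 1.60 and 1.99 to 2.82), against 0.262 and 0.605 CPM in GFP controls (0.150 to 0.425 and 0.428 to 0.830). The intervals, which cover counting error only, did not overlap between the groups, but those within each group did not overlap either. The fold was 4.18 and the log2 fold change 2.06 ± 0.60 (95% interval 0.69 to 3.44), with an adjusted p of 0.355 in edgeR. DESeq2 gave an adjusted p of 0.0193 for Cdk1, within a range of 0.0193 to 1.00 over the alternatives.

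Top2a was at 9.04 and 13.9 CPM in shAdnp libraries, against 1.85 and 4.89 CPM in GFP controls. Mki67 was at 10.2 and 14.7 CPM in shAdnp libraries, against 4.01 and 7.18 CPM in GFP controls. For both genes the groups were apart, and library 2 exceeded library 1 within each group by a wide margin. The log2 fold changes were 1.76 ± 0.87 for Top2a and 1.16 ± 0.58 for Mki67, with an adjusted p of 0.700 for each in edgeR. The ratio of the summed CPM of the 3 mitotic genes to that of Mcm2 to Mcm7 was 0.288 and 0.468 in shAdnp libraries, against 0.122 and 0.225 in GFP controls, so they stood higher relative to the helicase as well.

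Among the other subunits, Mcm4 was at 18.6 and 15.8 CPM in shAdnp libraries, against 12.6 and 13.4 CPM in GFP controls. Mcm6 was at 13.8 and 13 CPM in shAdnp libraries, against 9.63 and 10.9 CPM in GFP controls. Groups did not overlap for these subunits, nor for Mcm5 and Mcm7, where the distance was smaller. The log2 fold changes were 0.41 ± 0.17 for Mcm4, 0.39 ± 0.25 for Mcm6, 0.27 ± 0.29 for Mcm5 and 0.10 ± 0.15 for Mcm7. Mcm2 (8.59 and 7.65 CPM in shAdnp libraries, 6.15 and 7.66 CPM in GFP controls) and Pcna (31.6 and 25.5 CPM in shAdnp libraries, 24.6 and 29.4 CPM in GFP controls) overlapped between the groups. The ratio of Mcm3 to Mcm7 in CPM was 0.648 and 0.558 in shAdnp libraries, against 0.247 and 0.292 in GFP controls.

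Counted together, 10 of the 10 genes had a log2 fold change above 0 in the Adnp set, beside 47.7% of all genes, and 8 of 10 had shAdnp libraries that all lay above the controls, beside 20.4% of all genes (0 lay wholly below, beside 21.0%). At an unadjusted p under 0.05, 3 of 10 were higher (Mcm3, Cdk1 and Mcm4), beside 6.67% of all genes, and 0 were lower, beside 1.69%. At the adjusted threshold 0 of 10 passed, beside 0% of all genes, although 1161 genes were higher and 295 lower at an unadjusted p under 0.05. DESeq2 called 420 genes, Mcm3 and Cdk1 among them, and limma-voom 0. The median log2 fold change of the 10 was 0.40, beside -0.01 over all genes. Over the 8 libraries the 10 genes moved together, with Pearson r between 0.46 (Mcm5 and Mcm7) and 0.98 (Mki67 and Top2a) in log2 CPM. Counts out of 10, here and below, are therefore not counts of independent genes. Without GFP library 1 the count of 3 at the unadjusted threshold became 1, and in a fit of the 4 libraries alone it became 6.

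In shPogz cortex all 10 genes were again higher on average than in GFP controls, but the differences were smaller without shPogz library 2, where the median of the 10 log2 fold changes was 0.23 in place of 0.57. Mcm3 was at 7.74 and 13.3 CPM in shPogz libraries, against 4.74 and 7.02 CPM in GFP controls. Cdk1 was at 2.55 and 5.21 CPM in shPogz libraries (109 and 199 reads), against 0.99 and 2.23 CPM in GFP controls (28 and 157 reads). Both genes lay above both controls in each shPogz library, although shPogz library 1 exceeded GFP library 2 only narrowly. The log2 fold changes were 0.82 ± 0.29 for Mcm3 and 1.23 ± 0.56 for Cdk1, each with an adjusted p of 0.667 in edgeR. Without shPogz library 2 these values became 0.40 for Mcm3 and 0.64 for Cdk1, and without GFP library 2 they became 1.15 and 1.97.

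Top2a was at 16.8 and 32.0 CPM in shPogz libraries, against 4.14 and 17.6 CPM in GFP controls. Mki67 was at 21.4 and 31.5 CPM in shPogz libraries, against 8.10 and 23.5 CPM in GFP controls. For both genes GFP library 2 exceeded shPogz library 1, so the groups overlapped. The ratio of the summed mitotic genes to Mcm2 to Mcm7 overlapped as well. It was 0.573 and 0.65 in shPogz libraries, against 0.219 and 0.622 in GFP controls. The log2 fold changes were 1.14 ± 0.84 for Top2a and 0.72 ± 0.57 for Mki67. Leaving out GFP library 1 brought them to 0.50 for Top2a and 0.19 for Mki67, whereas leaving out GFP library 2 brought them to 2.56 and 1.71. GFP library 1 had the fewest counts of the 8 libraries, 27501722, and the part of depth in this spread was not tested.

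Of the other helicase subunits, Mcm6 was at 15.4 and 27.4 CPM in shPogz libraries, against 12.9 and 15.6 CPM in GFP controls. Mcm2 was at 8.84 and 12 CPM in shPogz libraries, against 6.93 and 8.83 CPM in GFP controls. The groups of Mcm6 overlapped and those of Mcm2 were apart by the last digit only. The log2 fold changes were 0.58 ± 0.25 for Mcm6, 0.55 ± 0.29 for Mcm5, 0.40 ± 0.21 for Mcm2, 0.24 ± 0.16 for Mcm7 and 0.23 ± 0.17 for Mcm4. Without shPogz library 2 the value of Mcm6 was 0.12 and that of Mcm4 was -0.01. The ratio of Mcm3 to Mcm7 overlapped here, at 0.528 and 0.715 in shPogz libraries, against 0.315 and 0.538 in GFP controls. Pcna was at 31.0 and 34.9 CPM in shPogz libraries, against 25.1 and 30.1 CPM in GFP controls, a log2 fold change of 0.25 ± 0.15.

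In the Pogz set 10 of 10 genes had a log2 fold change above 0, beside 46.4% of all genes, and 4 of 10 (Mcm2, Mcm3, Pcna and Cdk1) had groups that did not overlap, beside 19.0% of all genes (0 wholly below, beside 21.3%). At an unadjusted p under 0.05, 2 of 10 were higher (Mcm3 and Mcm6), beside 4.05%, and 0 lower, beside 2.65%. The adjusted threshold was passed by 0 of 10 in edgeR, beside 0% of all genes, with 706 genes higher and 461 lower at an unadjusted p under 0.05. DESeq2 called 100 genes, 0 of the 10 among them, and limma-voom 0. The median of the 10 was 0.57, beside -0.02 over all genes. The count of 2 became 0 without GFP library 1 or shPogz library 2, 5 without GFP library 2, 7 without shPogz library 1, and 1 without either shAdnp library, which enters through the shared estimate of spread.

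**Figure D2:**
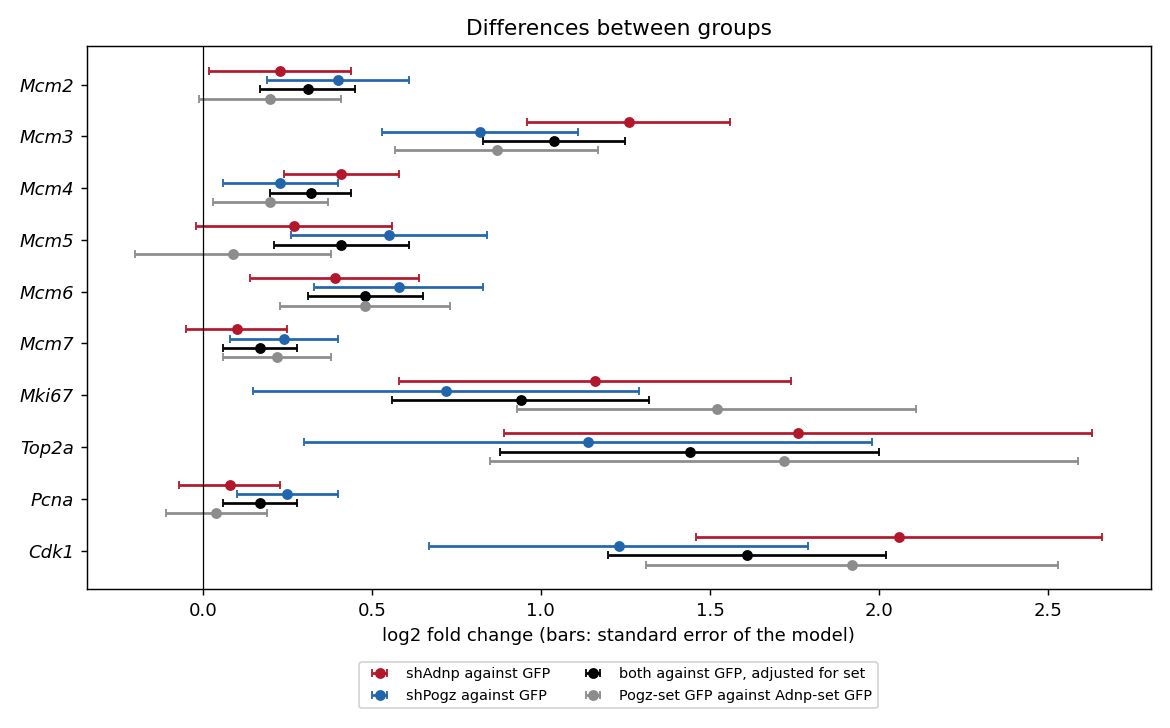
Log2 fold change of each gene (horizontal axis) for shAdnp against GFP, shPogz against GFP, both hairpins against GFP adjusted for set, and Pogz-set GFP against Adnp-set GFP, with bars of 1 standard error of the model. Points lie above 0 throughout, from 0.04 for Pcna between the control pairs to 2.06 for Cdk1 in shAdnp, and the bars are widest for Mki67, Top2a and Cdk1.

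A model with terms for set and for hairpin gave the average response over both sets, using the same libraries as the comparisons above. Mcm3 had a log2 fold change of 1.04 ± 0.21 and Cdk1 of 1.61 ± 0.41, with unadjusted p of 0.000563 and 0.00296 and adjusted p of 0.142 and 0.180 in edgeR. These were the only 2 of the 10 whose hairpin libraries lay above the controls of their own set in both sets, beside 7.12% of all genes, and 0 lay below in both, beside 5.31%. Top2a followed at 1.44 ± 0.56 and Mki67 at 0.94 ± 0.38, then Mcm6 at 0.48 ± 0.17, Mcm5 at 0.41 ± 0.20, Mcm4 at 0.32 ± 0.12, Mcm2 at 0.31 ± 0.14, and Mcm7 and Pcna at 0.17 ± 0.11 each. In this model 6 of 10 were higher at an unadjusted p under 0.05 (Mcm3, Cdk1, Mcm6, Mcm4, Top2a and Mki67), beside 8.84% of all genes, and 0 were lower, beside 3.62%. Log2 fold changes above 0 were seen for 10 of 10, beside 44.7% of all genes. The median was 0.45, beside -0.02 over all genes. Without shPogz library 2 the median became 0.27, Mcm6 0.28 and Mcm5 0.27, and without GFP library 1 of the Pogz set Mcm5 became 0.24.

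At the adjusted threshold the average response passed for 0 of 10 in edgeR, beside 0% of all genes, with 1540 genes higher and 631 lower at an unadjusted p under 0.05. DESeq2 called 711 genes, with Mcm3 (adjusted p = 0.000236) and Cdk1 (adjusted p = 0.00273) among them, and limma-voom called 0. Over the alternatives the adjusted p ran between 0.000236 and 0.438 for Mcm3 and between 0.00273 and 0.512 for Cdk1. Without shPogz library 1, edgeR called 502 genes, again with Mcm3 (adjusted p = 0.0106) and Cdk1 (adjusted p = 0.0377). The count of 6 became 3 without GFP library 1 of the Adnp set, without shAdnp library 1 or without shPogz library 2.

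Whether the hairpins differed in effect was tested directly, as the response to shPogz minus the response to shAdnp. The difference lay between -0.84 for Cdk1 (95% interval -2.69 to 1.01) and 0.28 for Mcm5 on the log2 scale. It was above 0 for 5 of 10, beside 46.9% of all genes. For Mcm3 it was -0.44 (interval -1.37 to 0.50), for Top2a -0.63 (-3.71 to 2.46) and for Mki67 -0.43 (-2.47 to 1.61). In edgeR 0 of 10 passed the adjusted threshold, beside 0% of all genes, and 0 of 10 had an unadjusted p under 0.05, beside 1.10% of genes higher and 2.41% lower (192 and 420 genes). DESeq2 called 2 genes and limma-voom 0. The intervals are wide, so these libraries leave room for sizeable differences in either direction. For 7 of the 10 genes the sign of this difference turned when 1 library was left out.

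The GFP control pairs themselves stood apart in the same genes. Mcm3 was at 4.74 and 7.02 CPM in Pogz-set GFP libraries, against 2.85 and 3.65 CPM in Adnp-set GFP libraries. Cdk1 was at 0.99 and 2.23 CPM in Pogz-set GFP libraries, against 0.262 and 0.605 CPM in Adnp-set GFP libraries. Neither gene overlapped between the control pairs. The log2 fold changes were 0.87 ± 0.30 for Mcm3 and 1.92 ± 0.61 for Cdk1, with an adjusted p of 0.672 each in edgeR. Mki67 differed by 1.52 ± 0.59 and Top2a by 1.72 ± 0.87, and without GFP library 2 of the Pogz set Mki67 became 0.53 and Top2a 0.30, with Mcm3 at 0.55 and Cdk1 at 1.19. The control libraries are also the baseline of the hairpin comparisons, so the values are not independent of those above.

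Between the control pairs 10 of 10 genes had a log2 fold change above 0, beside 51.8% of all genes, with a median of 0.35, beside 0.01 over all genes. At an unadjusted p under 0.05, 3 of 10 were higher (Cdk1, Mcm3 and Mki67), beside 4.65%, and 0 lower, beside 2.70%. Groups did not overlap for 6 of 10, all higher in the Pogz set, beside 21.2% of all genes (22.3% lay lower). In edgeR 0 of 10 passed the adjusted threshold, beside 0.00574% of all genes, which is 1 gene. DESeq2 called 73 genes, 0 of the 10 among them. The count of 3 became 0 without GFP library 1 of the Adnp set or GFP library 2 of the Pogz set. The labels name no batch or date, and what separates the control pairs cannot be told apart from set.

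Genes that act around the members were described by lists. Of 36 further genes of mitosis, 34 had log2 fold changes above 0 in the Adnp set (median 0.69) and 35 in the Pogz set (median 0.63). At an unadjusted p under 0.05, 5 were higher and 0 lower in the Adnp set, and 2 higher and 0 lower in the Pogz set. All counts of list genes at this threshold are to be read beside the shares of all genes tested, 6.67% higher and 1.69% lower in the Adnp set and 4.05% higher and 2.65% lower in the Pogz set, which the 2 of 36 in the Pogz set come near. Cdc20, the activator of the anaphase-promoting complex, was at 1.91 and 2.14 CPM in shAdnp libraries, against 0.719 and 0.509 CPM in GFP controls. It was at 2.71 and 3.82 CPM in shPogz libraries, against 1.06 and 2.08 CPM in GFP controls. Cdc20 thus lay above the controls in both sets, with log2 fold changes of 1.72 ± 0.40 and 1.03 ± 0.38. Aurkb, the kinase of the chromosomal passenger complex, differed by 1.97 ± 0.60 in the Adnp set and 0.30 ± 0.56 in the Pogz set, and the microtubule-depolymerising kinesin Kif2c by 2.15 ± 0.65 and 0.96 ± 0.60. The control pairs differed in this list as well, with 34 of 36 above 0 in the Pogz-set pair and a median of 0.72.

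Genes that load or fire origins and genes of the replication fork lay closer to their controls than the mitotic list did in median. Of 23 origin genes, 13 were above 0 in the Adnp set (median 0.09) and 19 in the Pogz set (median 0.21), with 2 and 0 higher at an unadjusted p under 0.05 and 0 lower in either, near the shares of all genes (6.67% and 4.05% higher). Cdt1, which loads the Mcm helicase, was at 1.60 and 1.93 CPM in shAdnp libraries, against 0.899 and 1.05 CPM in GFP controls, a log2 fold change of 0.85 ± 0.31. Mcm10, which helps to activate the helicase, differed by 0.96 ± 0.34 in the Adnp set and by 0.21 ± 0.33 in the Pogz set. Of 28 fork genes tested out of 30 listed, 17 were above 0 in the Adnp set (median 0.06) and 24 in the Pogz set (median 0.26), with 2 and 3 higher at an unadjusted p under 0.05, beside 6.67% and 4.05% of all genes, and 0 lower. Pold1, the catalytic subunit of DNA polymerase delta, was at 7.98 and 8.14 CPM in shAdnp libraries, against 4.69 and 4.81 CPM in GFP controls. In the Pogz set it was at 7.72 and 8.98 CPM in shPogz libraries, against 5.34 and 6.94 CPM in GFP controls. Pold1 was separated from its controls in both sets, with log2 fold changes of 0.76 ± 0.19 and 0.44 ± 0.19.

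Of 12 genes of deoxynucleotide supply, 9 were above 0 in each set (medians 0.06 in the Adnp set and 0.21 in the Pogz set), and 1 and 2 were higher at an unadjusted p under 0.05, beside 6.67% and 4.05% of all genes. Rrm2, the S-phase subunit of ribonucleotide reductase, was at 4.09 and 3.15 CPM in shAdnp libraries, against 1.39 and 2.39 CPM in GFP controls, and differed by 0.94 ± 0.34 there and by 0.89 ± 0.34 in the Pogz set. Samhd1, which breaks deoxynucleotides down and is abundant in myeloid cells, differed by 0.92 ± 0.55 in the Adnp set and 1.66 ± 0.55 in the Pogz set. Of 27 cyclins, kinases and E2F genes of the G1 to S transition, 22 were above 0 in the Adnp set (median 0.20) and 20 in the Pogz set (median 0.12). At an unadjusted p under 0.05, 6 were higher and 0 lower in the Adnp set (6.67% and 1.69% of all genes), and 2 were higher and 1 lower in the Pogz set (4.05% and 2.65% of all genes). The pocket protein gene Rbl1, which holds E2F genes silent, differed by 0.73 ± 0.30 in the Adnp set and 1.16 ± 0.30 in the Pogz set, E2f8, a repressor of the E2F family, by 1.25 ± 0.55 and 1.73 ± 0.53, and the activator E2f1 by 0.19 ± 0.14 and -0.48 ± 0.15.

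Of 15 inhibitors of the cell cycle, 13 were above 0 in the Adnp set (median 0.23, 0 past an unadjusted p of 0.05 in either direction) and 12 in the Pogz set (median 0.45, 5 higher and 1 lower, beside 4.05% and 2.65% of all genes). In the Pogz set the growth arrest gene Gadd45g differed by 0.97 ± 0.24 and the tumour suppressor Trp53 by 0.57 ± 0.15. The other topoisomerases stayed near their controls, with 1 of 5 above 0 in the Adnp set (median -0.10) and 2 of 5 in the Pogz set (median -0.03). Top2b, the isoform that non-dividing cells such as neurons use, was at 200 and 198 CPM in shAdnp libraries, against 215 and 217 CPM in GFP controls. Its log2 fold change was -0.12 ± 0.10, while Top2a stood at 1.76 ± 0.87 in the same libraries. Of all these lists, 0 genes passed the adjusted threshold in edgeR in either set.

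**Figure D3:**
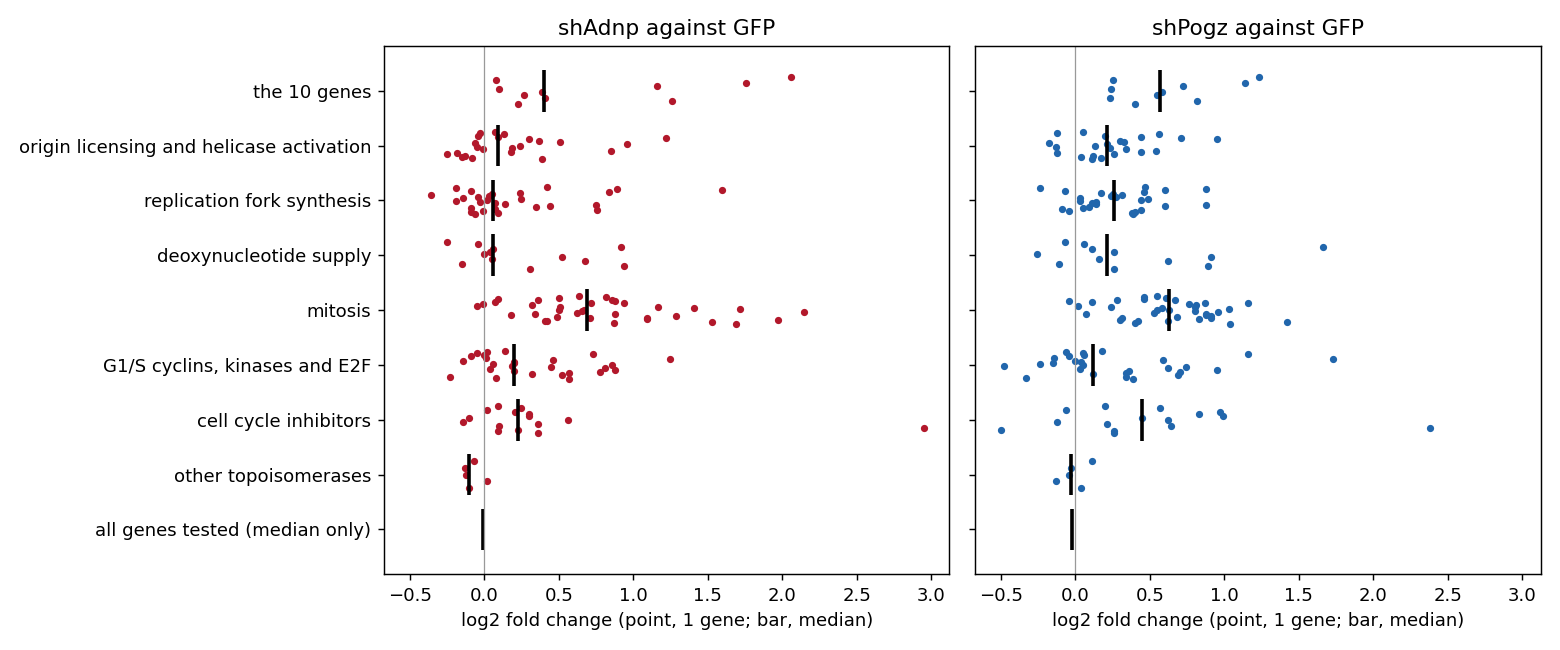
Log2 fold change of every tested gene of each list, for shAdnp against GFP and shPogz against GFP, 1 point per gene with the median of each list marked. The medians of the mitosis list, 0.69 and 0.63, lie above those of the origin list, 0.09 and 0.21, and of the fork list, 0.06 and 0.26.

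Summed markers of blood leukocytes and microglia were lowest and highest in the same libraries as the mitotic genes. The highest microglial sum, 1970 CPM in shPogz library 2, was close to the 1960 CPM of shAdnp library 1. Oligodendrocyte precursor markers were also lowest in GFP library 1 of the Adnp set, but were highest in shAdnp library 1. Neural progenitor markers were lowest in shPogz library 2 and highest in GFP library 2 of the Adnp set. The 18 measured leukocyte markers summed to 66.9 and 113 CPM in shAdnp libraries, against 13.2 and 45.0 CPM in GFP controls. They summed to 131 and 289 CPM in shPogz libraries, against 67.5 and 126 CPM in GFP controls. Mki67, Top2a and Cdk1 summed to 20.5 and 31.0 CPM in shAdnp libraries and 6.12 and 12.7 CPM in their controls, and to 40.7 and 68.7 CPM in shPogz libraries and 13.2 and 43.3 CPM in their controls. Both sums were lowest in GFP library 1 of the Adnp set and highest in shPogz library 2, and shPogz library 1 and GFP library 2 of the Pogz set were close to each other in both. In the library at the low end, the T cell genes Cd3e, Cd3g and Cd3d were at 0. Of the list, 15 were above 0 in each hairpin comparison, with medians of 1.65 in the Adnp set and 0.89 in the Pogz set, and 17 between the control pairs with a median of 2. At an unadjusted p under 0.05, 2 of 18 were higher and 1 lower in the Adnp set, and 2 higher and 0 lower in the Pogz set. The neutrophil gene S100a9 was the lower one, at 0.104 and 0.162 CPM in shAdnp libraries, against 0.262 and 0.478 CPM in GFP controls (log2 fold change -1.46 ± 0.64), whereas the T cell genes Cd3e and Cd8b1 differed by 2.84 ± 1.04 and 2.19 ± 0.81. Ptprc, which encodes the pan-leukocyte protein CD45 that microglia also carry, was at 44.5 and 55.7 CPM in shAdnp libraries, against 9.29 and 23.3 CPM in GFP controls.

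The 15 microglia markers summed to 1960 and 1290 CPM in shAdnp libraries, against 602 and 808 CPM in GFP controls, with 15 of 15 higher at an unadjusted p under 0.05, beside 6.67% of all genes, and a median of 1.07. They summed to 1230 and 1970 CPM in shPogz libraries, against 1020 and 1140 CPM in GFP controls, with 1 of 15 higher, beside 4.05% of all genes, and a median of 0.38. The control pairs differed in this list as well, with 14 of 15 above 0 in the Pogz-set pair and a median of 0.67. At an unadjusted p under 0.05 in edgeR, 4 of 15 were higher there, beside 4.65% of all genes, and 0 were lower. Within shAdnp the library with the higher microglial sum, library 1, was the one with the lower Mki67, Top2a and Cdk1. Mcm2 to Mcm7 summed to 71.3 and 66.2 CPM in shAdnp libraries and to 50 and 56.3 CPM in their controls. This sum followed the microglial order within both groups of the Adnp set and both groups of the Pogz set. The oligodendrocyte precursor markers had the same order except in the GFP controls of the Pogz set. With 2 libraries per group such an order is a description only. In the Pogz set Mcm2 to Mcm7 summed to 71.0 and 106 CPM in shPogz libraries, against 60.5 and 69.7 CPM in GFP controls.

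Markers of oligodendrocyte precursors summed to 470 and 367 CPM in shAdnp libraries, against 325 and 391 CPM in GFP controls, and to 362 and 429 CPM in shPogz libraries, against 386 and 353 CPM in GFP controls. These sums overlapped between the groups in both sets. Of the 11 markers, 11 were above 0 in the Adnp set (median 0.18) and 7 in the Pogz set (median 0.06). Libraries did not overlap for 6 and 4 of them, all higher, beside 20.4% and 19.0% of all genes. At an unadjusted p under 0.05 in edgeR, 2 were higher in the Adnp set and 0 in the Pogz set, beside 6.67% and 4.05%, and 0 were lower. Neural progenitor markers ran between 470 and 643 CPM over the 8 libraries and were lowest in shPogz library 2, where the 10 genes were highest. Counted by gene, 9 of 14 were above 0 in the Adnp set (median 0.17) and 10 in the Pogz set (median 0.13), beside 47.7% and 46.4% of all genes. At an unadjusted p under 0.05 in edgeR, 3 were higher in the Adnp set and 2 in the Pogz set, beside 6.67% and 4.05%, and 0 were lower. Eomes is a factor of intermediate neural progenitors that cytotoxic lymphocytes also use. It was at 0.348 and 0.828 CPM in shAdnp libraries, against 0.0981 and 0.0955 CPM in GFP controls. These control values lie below the 0.262 CPM at which Cdk1 had 16 reads. They rest on few reads, as do those of S100a9 in shAdnp libraries. The log2 fold change of Eomes was 2.57 ± 0.75 in the Adnp set and 1.83 ± 0.65 in the Pogz set. That of Nes, which encodes the progenitor filament nestin, was 0.65 ± 0.24 and 0.81 ± 0.24. Endothelial markers ran between 291 and 362 CPM. Meningeal fibroblast markers summed to 233 and 247 CPM in shAdnp libraries, against 124 and 128 CPM in GFP controls, and to 185 and 207 CPM in shPogz libraries, against 118 and 187 CPM in GFP controls. Of the 10 fibroblast markers, 10 were above 0 in the Adnp set with groups that did not overlap, beside 20.4% of all genes. At an unadjusted p under 0.05, 9 were higher, beside 6.67% of all genes, and the median log2 fold change was 0.86. In the Pogz set 7 of 10 were above 0 with a median of 0.31. At that threshold 0 were higher and 1 was lower, beside 4.05% and 2.65% of all genes. The median span of the fibroblast markers between the lowest and highest library was 3.39-fold, beside 2.99-fold for the microglia markers. The leukocyte markers had the widest span of the cell type lists, at 56.8-fold. Some of them were at 0 in GFP library 1 of the Adnp set. Markers of excitatory neurons summed to 8470 and 9170 CPM in shAdnp libraries and 9660 and 9210 CPM in their controls, and to 7860 and 6160 CPM in shPogz libraries and 7570 and 8210 CPM in their controls. Astrocyte markers ran between 4460 and 6330 CPM and interneuron markers between 562 and 682 CPM, both lowest in shPogz library 2. The part of any of these cell types in the differences of the 10 genes was not tested.

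**Figure D4:**
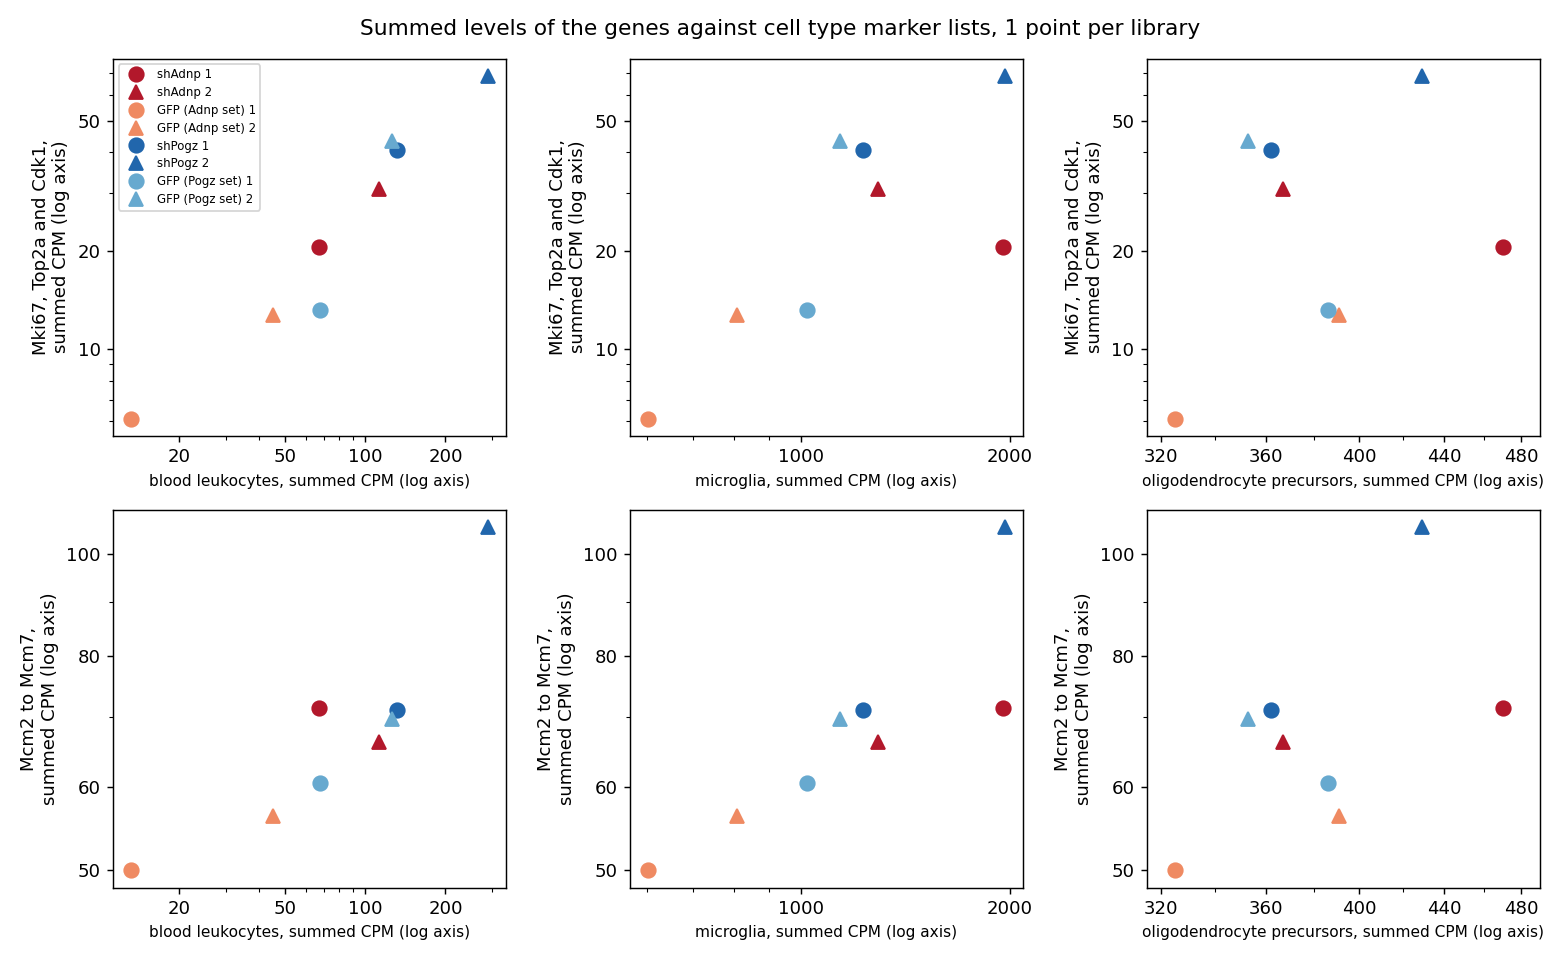
Summed CPM of Mki67, Top2a and Cdk1 (upper row) and of Mcm2 to Mcm7 (lower row) against the summed CPM of markers of blood leukocytes, microglia and oligodendrocyte precursors, on log axes with 1 point per library. In the upper left panel GFP library 1 of the Adnp set lies at 13.2 and 6.12 CPM and shPogz library 2 at 289 and 68.7 CPM, with the other 6 libraries between.

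The tested genes outside the lists whose log2 CPM followed Mki67, Top2a and Cdk1 most closely over the 8 libraries were Uhrf1 (Pearson r = 0.998), Wdfy4 (0.993), Unc13d (0.992), Gpr174 (0.991) and Tgfbi (0.991). Uhrf1, which keeps DNA methylation through replication, ran between 0.785 and 7.65 CPM. Gpr174 is a receptor of lymphocytes and Unc13d acts in the release of cytotoxic granules. The genes closest to Mcm2 to Mcm7 were Lyl1 (0.993), Cyp1b1 (0.992), Chd7 (0.992), Sbno2 (0.991) and Fam196b (0.987). These are the top of 16720 genes ranked over only 8 libraries that share group, set and depth, and 3.01% of the genes exceeded an r of 0.9 with the mitotic genes and 3.98% with the helicase genes, so they are a description of the ranking.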

How the data were processed

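The deposited values are raw counts of reads per gene symbol, 1 table per library. The authors' tools are listed as STAR, featureCounts and DESeq2, and the build as mm10, per the submitters' processing notes. The labels' protocols instead name TopHat2, run on RefSeq mRNAs after Cutadapt trimming. Libraries were stranded total RNA after ribosomal RNA depletion, from biological duplicates, per the labels' protocols. Groups follow the sample titles. The design text speaks of 3 knockdown mice, and 2 libraries per group were analysed here. Of the identifiers of each library, 25 that read as dates (0.306% to 0.337% of counts) and 2 blank ones were left out. In R 4.3.3, edgeR 4.0.16 with TMM scaling and filterByExpr (minimum count 10) fitted all 8 libraries. The model with a separate mean for each group left 4 residual degrees of freedom. The average response came from the other model, with terms for set and hairpin. Benjamini-Hochberg adjustment followed over 17415 genes at 0.05. Standard errors were derived as the absolute log2 fold change divided by the square root of edgeR's F statistic. The 95% intervals of log2 fold changes were built from them. With 2 libraries per group an exact permutation test could not go below p = 0.333, and model p-values measure only the spread between these libraries. Other fits were DESeq2 1.42.0, limma-voom (limma 3.58.1), other scalings and filters, Rn45s left out, only 4 libraries, a replicate block and each library left out. Scripts were tested on simulated data. Exon lengths come from GENCODE M21. The 10 genes, the lists and the rule for named genes (up to 4 per list and set with the smallest p, and 5 most alike) were chosen with earlier results of these data known. The values of 1 marker are not reported here.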

Additional observations from a re-analysis of the deposited data

How the results depend on the processing

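All alternatives were set with the design. Of 830 recomputed values of single genes, 816 kept their sign. With 1 library left out, the median of the 10 genes ran from 0.35 to 0.48 for shAdnp, 0.23 to 0.91 for shPogz and 0.27 to 0.55 for both. DESeq2 called 420 genes for shAdnp, 100 for shPogz, 711 for both, 2 for the difference between the responses and 73 between the control pairs, and 2 of the 10 genes for shAdnp and 2 for both. limma-voom called 0 of all genes in the hairpin comparisons, with 5 of the 10 at an unadjusted p under 0.05 for shAdnp and 1 for shPogz, and the 4 shAdnp and GFP libraries alone gave 6. Without a low-count filter 6 genes differed between the control pairs.

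The replicate number as a block, which the labels do not tie to a shared mouse, litter or day, called 144 genes for shAdnp, 26 for shPogz, 455 for both and 18 between the control pairs. With the block, 1 of the 10 genes was called for shAdnp (Cdk1) and 4 for both (Mcm3, Mki67, Top2a and Cdk1), and 5 for shAdnp and 6 for shPogz had an unadjusted p under 0.05. Deviations of same-numbered libraries correlated at -0.08 in the Adnp set and 0.11 in the Pogz set across all genes. The numbers were not taken as pairs. A correlation over all genes does not show that the number is unrelated to the 10 genes. Mki67, Top2a and Cdk1 summed higher in library 2 than in library 1 within all 4 groups, and so did the leukocyte markers. What lies behind this order was not tested.

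With 1 library left out in turn, genes called ran from 0 to 8 for shAdnp (8 without shAdnp library 1), 0 to 100 for shPogz and 0 to 502 for both (100 and 502 without shPogz library 1), 0 to 4 for the difference and 0 to 2 between the control pairs. The lone library of a group was then assumed to vary like the other groups. Of the 10 genes, 0 to 2 were called for both. Those at an unadjusted p under 0.05 ran from 1 to 4 for shAdnp, 0 to 7 for shPogz, 3 to 7 for both, 0 to 1 for the difference and 0 to 4 between the control pairs. The sign turned for the difference between responses in Mcm2 (-0.05 to 0.37), Mcm4 (-0.42 to 0.05), Mcm5 (-0.05 to 0.82), Mcm6 (-0.26 to 0.55), Mcm7 (-0.02 to 0.30), Mki67 (-0.96 to 0.55) and Top2a (-1.49 to 0.79). It also turned between the control pairs in Mcm5 (-0.45 to 0.45) and Pcna (-0.11 to 0.17), for shAdnp in Pcna (-0.07 to 0.24) and for shPogz in Mcm4 (-0.01 to 0.45). The cause was not tested. Cdk1, with 16 to 199 reads per library, is the gene that depth limits most.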
